A study of Mus musculus with 108 samples.

Results

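The livers described here came from mice labelled Bmal1-iKO and were collected at 6 times of day, and the question is which genes and functions were high or low at which time. Members were chosen by their labels alone: liver as tissue and Bmal1-iKO as genotype, which gave 18 libraries of the 108 in the series, 3 at each of ZT2, ZT6, ZT10, ZT14, ZT18 and ZT22 (hours after lights on). All were labelled as male C57BL/J mice of 8 to 12 weeks, kept in 12 h of light and 12 h of darkness with food and water always available, and the labels name no treatment. Bmal1 (gene symbol Arntl) is the clock gene that iKO refers to. Which cells lost it and which Cre driver was used is not in the labels. Nor do they tie each library to its own animal, and p-values reflect only how much libraries differ. The series title places the clock in question in the intestine, which was not analysed here. Control livers were not compared here, so every comparison is between times of day within 1 genotype.

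The liver clock is a feedback loop in which BMAL1 and CLOCK (or NPAS2) switch on the genes of their own repressors, the PER and CRY proteins, and of the nuclear receptors REV-ERBα and REV-ERBβ, which in turn repress Arntl. The PAR bZIP factors DBP, TEF and HLF carry the rhythm to genes of xenobiotic and amino acid metabolism, and NFIL3 acts against them at the same DNA element. Feeding, body temperature and circulating glucocorticoids also set the timing of liver genes, so that some daily rhythms persist in livers whose own clock is impaired.

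Values are CPM, the reads assigned to a gene scaled to a common library total, listed in the order of libraries 1, 2 and 3. CPM is not corrected for gene length and is compared only between libraries. A 24 h cosine curve gave each gene an amplitude (peak above the daily mean, log2) and a peak time in hours after lights on. Every adjusted p is from edgeR's quasi-likelihood test with Benjamini-Hochberg adjustment over all genes tested, and a gene was called when it was below 0.05.

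Arntl RNA, read over the whole gene (chr7:113207465-113314126, plus strand, GRCm38), was present at every time. It measured 5.13, 2.84 and 8.24 CPM at ZT2, 3.34, 8.74 and 3.34 at ZT6 and 6.02, 2.2 and 5.8 at ZT10. At ZT14 it measured 22.4, 13.2 and 17.1 CPM, at ZT18 15.4, 9.71 and 12.9 and at ZT22 16.6, 11.8 and 4.92. All 6 libraries of ZT14 and ZT18 exceeded all 9 of ZT2, ZT6 and ZT10, and 1 library of ZT22 lay in the lower range. The fitted amplitude was 0.95 ± 0.23 log2 with a peak at 17.3 h, and it missed the threshold (adjusted p = 0.451). Reads were counted over all exons together, which hides the loss of a single exon, and these libraries are of liver, so Arntl cannot serve as a check of the label.

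Of the 18 libraries, 9 stood apart, defined by a mean of the cell cycle list above 2 log2 CPM. They differ from the other 9 in that list by definition, and they were unevenly spread over the day. In these 9 (libraries 1 and 2 of ZT6, ZT14 and ZT18 and all 3 of ZT22) the mean of the cell cycle list was 3.04 to 3.64 log2 CPM, against -0.37 to 0.46 in the other 9, and no library of ZT2 or ZT10 was among them. The same 9 had higher means of macrophage markers (6.48 to 7.66 against 2.04 to 4.18 log2 CPM) and interferon-stimulated genes (5.52 to 6.81 against 2.84 to 3.90), and lower means of hepatocyte markers (9.82 to 11.81 against 11.82 to 12.47) and of intestine and pancreas markers (0.96 to 2.18 against 3.17 to 4.56). Hepatocyte markers were thus abundant in every library, as the tissue label says. The intestine and pancreas mean rests on only 4 of 13 genes, those that passed the filter for low counts. Of the 13, 5 had 0 counts in all 18 libraries. In bulk RNA, fewer cells of a type and less RNA per cell cannot be told apart. In 2 of the 9, ZT18 library 1 and ZT22 library 3, Xist, the RNA of the inactive X chromosome, measured 8.35 and 8.47 log2 CPM against -1.16 or less in the other 9, although all were labelled male. Xist was -1.25 or less in the other 7 that stood apart. Ddx3y, a Y-linked gene, had 0 counts in those 2 libraries and 5.32 to 5.96 log2 CPM in the other 16. Total counts ran from 16350000 to 19480000. What set the 9 libraries apart was not tested, and each result below is given with the libraries it rests on.

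**Figure D1:**
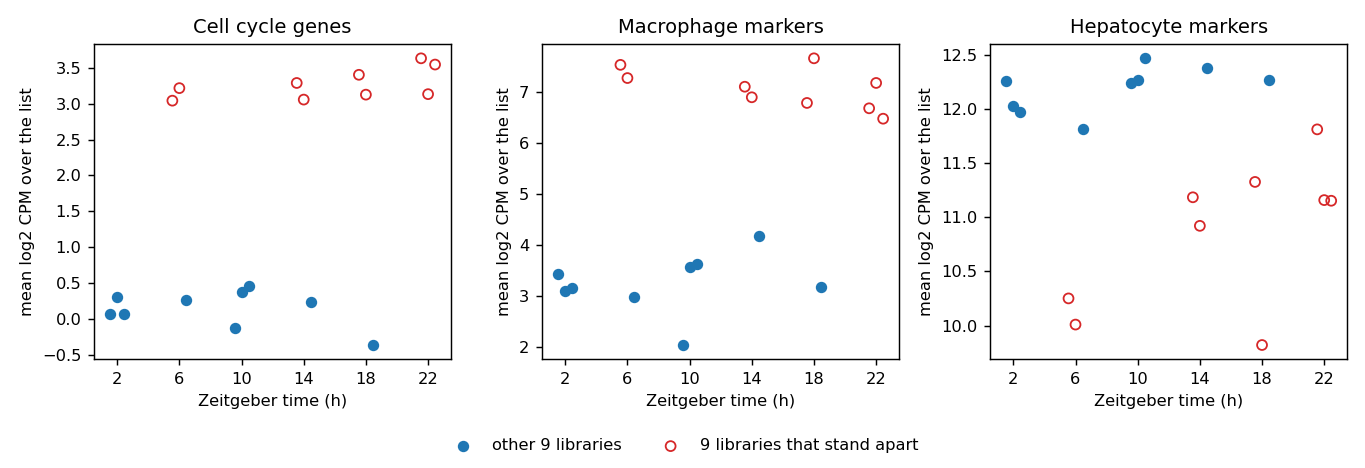
Mean log2 CPM of the cell cycle, macrophage and hepatocyte gene lists (vertical axes) in each of the 18 libraries, against hours after lights on (horizontal axis). Open red points are the 9 libraries with a cell cycle mean above 2, and filled blue points are the other 9. All 3 libraries of ZT22 and none of ZT2 and ZT10 are red.

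Rhythm was therefore measured in 4 ways. With all 18 libraries and no further term, 0 of 15871 genes were called (0%), with 1346 at an unadjusted p under 0.05. DESeq2 called 134. With a term that lets the 9 libraries differ by a constant, 76 of 15871 were called (0.479%). Over the other 9 libraries alone, 169 of 15914 were called (1.06%). In that set ZT6, ZT14 and ZT18 are held by 1 library each and ZT22 by none. The 6 libraries of ZT2 and ZT10, none of which stood apart, gave 952 of 13541 genes that differed between these times (7.03%). Of the 76 genes, 25 were also called over the 9 libraries alone, and 136 of the 169 also differed between ZT10 and ZT2. These tests share libraries, so the overlaps are no independent support.

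The REV-ERB genes were high in the early light phase and low in the dark. Nr1d1, which encodes REV-ERBα (chr11:98767932-98775333, minus strand, GRCm38), measured 90.8, 64.1 and 80.7 CPM at ZT2, 14.2, 11.3 and 33.2 at ZT6 and 10.3, 12.5 and 9.12 at ZT10. It measured 3.77, 3.01 and 3.35 CPM at ZT14, 2.11, 4.72 and 8.41 at ZT18 and 2.67, 2.63 and 1.67 at ZT22. The 3 libraries of ZT2 exceeded the other 15, and the 9 libraries of the dark phase were all below those of ZT6 and ZT10. Over all 18 libraries Nr1d1 had the lowest p of any difference among the 6 times (adjusted p = 0.000487). Between ZT2 and ZT10 it fell by 2.84 ± 0.22 log2 (SE, n = 3 per time, adjusted p = 0.000227). Its cosine amplitude was 1.55 ± 0.28 log2 with the term (peak 3.3 ± 0.7 h, adjusted p = 0.0433) and 2.06 ± 0.14 over the 9 libraries (peak 2.3 h, adjusted p = 1.01e-05). Nr1d1 overlaps the 3′ end of Thra, and reads of the overlap cannot be told apart because no strand setting is known for the counting.

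Nr1d2, which encodes REV-ERBβ, stayed high for longer. It measured 62, 104 and 92.5 CPM at ZT2, 50.5, 16.1 and 98.4 at ZT6 and 56.3, 56.3 and 41.1 at ZT10. It measured 14.3, 4.31 and 22.2 CPM at ZT14, 5.65, 10.4 and 17.7 at ZT18 and 6.58, 10.6 and 7.31 at ZT22. At ZT6 the library that did not stand apart was at the ZT2 level, while both that did were lower. The peak lay at 5.3 ± 0.6 h with an amplitude of 1.20 ± 0.19 log2 (with the term, adjusted p = 0.0194), and at 4.8 ± 0.4 h over the 9 libraries (adjusted p = 0.00423). Rora, an activating receptor that binds the same element as REV-ERB, was not called in any test. It ranged over 30.8 to 51.5 CPM in the 9 libraries and over 18.9 to 57 in those that stood apart.

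Among the PAR bZIP output factors, Dbp had the widest range. It measured 83, 81.9 and 92.2 CPM at ZT2, 5.44, 2.92 and 110.5 at ZT6 and 25, 42 and 44.8 at ZT10. In the dark it measured 3.41, 0.88 and 7.08 CPM at ZT14, 0.718, 0.819 and 4.42 at ZT18 and 1.36, 1.91 and 4.49 at ZT22. Of the 3 libraries of ZT6, the highest value of the whole day came from the one that did not stand apart, and the 2 that did were below every library of ZT10. Dbp rose to a peak at 4.6 ± 0.6 h with an amplitude of 1.65 ± 0.27 log2 (with the term, adjusted p = 0.0498), or at 4.9 ± 0.2 h with 2.46 ± 0.17 over the 9 libraries (adjusted p = 2.58e-05). Between ZT2 and ZT10 it had already fallen by 1.16 ± 0.23 log2 (adjusted p = 0.0164). Dbp overlaps Sphk2, whose reads cannot be told apart there. Tef, a close relative, did not pass the test, with 197, 339.5 and 293 CPM at ZT2, 204, 187 and 156 at ZT10 and 28.9, 17.8 and 65.7 at ZT22 and a fitted peak at 5.7 h (adjusted p = 0.0689). Hlf, the third of these factors, rose between ZT2 and ZT10 instead, from 35.1, 29.3 and 35.5 to 54.8, 51.1 and 50.1 CPM (0.69 ± 0.18 log2, adjusted p = 0.0439).

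The calls of these 3 rhythmic genes with the term depend on single libraries. Leaving out each of the 18 in turn, Nr1d2 lost its call in 2 fits, Nr1d1 in 13 and Dbp in 14, with adjusted p up to 0.0986, 0.0932 and 0.110. For Nr1d1 the difference between ZT2 and ZT10 remained called whichever of those 6 libraries was left out.

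None of the 4 clock activators and none of the 8 repressors was called by any of these edgeR tests, although several repressors had wide fitted curves. The result depends on the method: over 18 libraries DESeq2 called 8 of all 26 clock genes as rhythmic. An edgeR fit of all 36 liver libraries called 4. These counts include receptors and output factors. Per3, whose product is a PERIOD protein, measured 12.4, 51.1 and 22.9 CPM at ZT2, 12.1, 11.1 and 71.1 at ZT6 and 31.7, 27.5 and 18.1 at ZT10. In the dark it measured 9.86, 3.2 and 9.44 CPM at ZT14, 3.72, 2.85 and 4.35 at ZT18 and 2.39, 3.2 and 6.54 at ZT22. Every light-phase library was above every dark-phase library, and the fitted curve had an amplitude of 1.83 ± 0.28 log2 and a peak at 6.3 h (18 libraries, adjusted p = 0.223; with the term, 0.0574). Per3 overlaps Camta1 on the same strand, and reads of the shared stretch cannot be told apart. Per2 had a fitted peak at 8.2 h with an amplitude of 1.15 ± 0.25 log2 (adjusted p = 0.405). Per2 measured 56.9, 32.2 and 25.4 CPM at ZT10 and 13.4, 8.23 and 10.6 at ZT18. Ciart, a BMAL1-CLOCK repressor, ranged at ZT2 from 1.67 to 24.2 CPM and at ZT22 from 0.0478 to 1.09, and its curve was not called (adjusted p = 0.527).

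Cry1, which encodes a cryptochrome repressor, was highest in the dark. It measured 12.8, 5.17 and 15 CPM at ZT2 and 21.2, 15.2 and 22.6 at ZT10. It then measured 46.1, 45.7 and 43.9 CPM at ZT14, 53.7, 19.5 and 27.7 at ZT18 and 48, 17.1 and 54.8 at ZT22, and at ZT6 1 of the libraries that stood apart had 50.3 CPM against 7.96 and 15.8 in the others. Over the 9 libraries its fitted peak was at 15.2 h, at the edge of the threshold (adjusted p = 0.0686). Npas2, a partner of BMAL1 in place of CLOCK, was at or below 0.0707 CPM in all 3 libraries of ZT10 and between 0.291 and 9 at ZT2. Elsewhere it reached 27.7 CPM and was not called (adjusted p of any difference = 0.107). Clock itself ranged over only 23.7 to 43.5 CPM in the 9 libraries.

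Other outputs of the clock differed between ZT2 and ZT10. Of the 10 in the list, 5 rose (the background of rises was 3.38% of all genes) and 1, Dbp, fell (3.65%). Besides Hlf, the risers were Wee1, a kinase that holds cells before mitosis, Nampt, the rate-limiting enzyme of NAD salvage, the tetraspanin Tspan4 and Por, the electron donor of the P450 enzymes. Nampt went from 42.9, 56.5 and 56.3 CPM at ZT2 to 92.3, 87 and 92.1 at ZT10 (0.84 ± 0.19 log2, adjusted p = 0.0273). Por went from 299, 686 and 348 to 778, 1037 and 1514 CPM (1.36 ± 0.35 log2, adjusted p = 0.0406). Neither pair of groups overlapped. Usp2, a deubiquitinase that the clock drives in many tissues, did not pass (1.28 ± 0.41 log2, adjusted p = 0.0935).

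**Figure D2:**
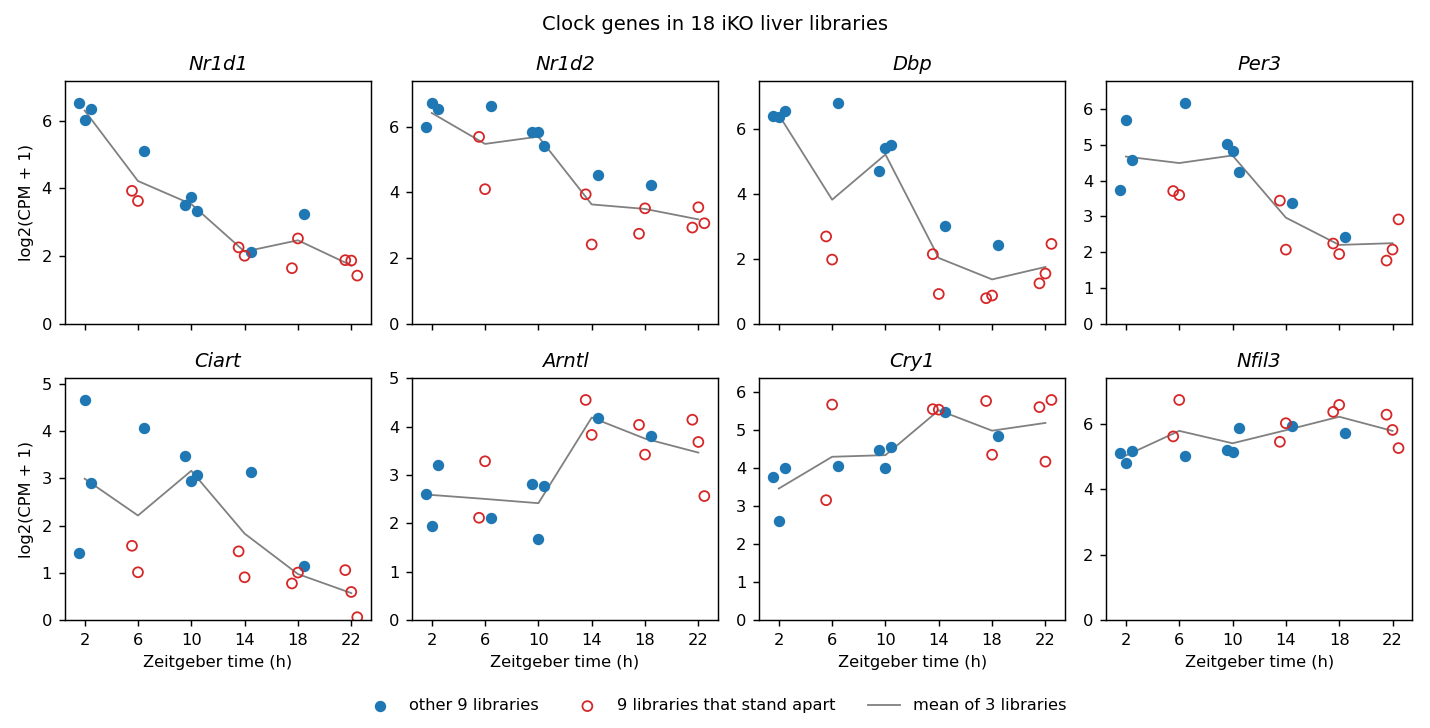
Log2(CPM + 1) of 8 clock genes (vertical axes) in each library, against hours after lights on (horizontal axis). Open red points are the 9 libraries that stood apart, filled blue points are the other 9, and the grey line joins the means of 3 libraries. Among the blue points, those of Nr1d1, Nr1d2, Dbp and Per3 at ZT2 to ZT10 lie above those of ZT14 and ZT18, and those of Arntl and Cry1 lie below, while red points of several genes overlap between light and dark.

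The promoters of these genes were read from RefSeq (GRCm38.p6), as windows of 250 bases before to 50 after each annotated start. A promoter was found for 22 of the 26 clock genes. The E-box CACGTG, which BMAL1-CLOCK binds, lay in 6 of them (Tef, Tspan4, Per1, Cry1, Bhlhe41 and Ciart), and in 7.15% of all 32851 windows. The D-box TTATGTAA, the element of DBP, TEF, HLF and NFIL3, lay in 1, Per3, and in 0.938% of all windows. The ROR element TAGGTCA lay in 2, Nfil3 and Arntl, and in 2.61% of all windows. Both strands were searched, and no matches overlap in the sequences shown. A match is a description of the letters and not a binding site. The 250 bases before the start are shown for 4 clock genes and for G6pc, a gene described further on, with the motifs in capitals. They are Ciart (chr3:95882229-95882478, minus strand, 3 E-boxes), Per3 (chr4:151044666-151044915, minus strand, 2 D-boxes), Cry1 (chr10:85185055-85185304, minus strand, 1 E-box), Nfil3 (chr13:52981040-52981289, minus strand, the ROR element read on the other strand) and G6pc (chr11:101367466-101367715, plus strand, a second D-box form TTACGTAA, which lay in 0.119% of windows, and a ROR element on the other strand).
Ciart: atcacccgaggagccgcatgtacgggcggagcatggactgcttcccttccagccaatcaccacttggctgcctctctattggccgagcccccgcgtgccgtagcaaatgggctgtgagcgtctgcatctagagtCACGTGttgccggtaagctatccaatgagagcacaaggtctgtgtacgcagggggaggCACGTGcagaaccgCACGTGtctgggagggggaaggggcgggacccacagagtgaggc
Per3: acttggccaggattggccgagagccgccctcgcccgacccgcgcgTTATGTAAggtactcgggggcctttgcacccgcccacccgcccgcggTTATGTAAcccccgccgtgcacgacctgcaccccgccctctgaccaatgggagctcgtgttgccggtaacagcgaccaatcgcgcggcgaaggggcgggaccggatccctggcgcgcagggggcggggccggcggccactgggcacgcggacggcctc
Cry1: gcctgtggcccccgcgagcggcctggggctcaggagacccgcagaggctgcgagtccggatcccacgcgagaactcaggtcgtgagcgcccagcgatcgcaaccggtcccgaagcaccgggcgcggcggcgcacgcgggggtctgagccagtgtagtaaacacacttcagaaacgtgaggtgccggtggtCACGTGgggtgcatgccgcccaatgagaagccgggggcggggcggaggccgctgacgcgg
Nfil3: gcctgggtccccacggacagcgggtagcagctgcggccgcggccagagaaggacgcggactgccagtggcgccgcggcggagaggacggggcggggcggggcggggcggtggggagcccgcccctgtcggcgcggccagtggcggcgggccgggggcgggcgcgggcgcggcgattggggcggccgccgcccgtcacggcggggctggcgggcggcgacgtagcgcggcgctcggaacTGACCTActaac
G6pc: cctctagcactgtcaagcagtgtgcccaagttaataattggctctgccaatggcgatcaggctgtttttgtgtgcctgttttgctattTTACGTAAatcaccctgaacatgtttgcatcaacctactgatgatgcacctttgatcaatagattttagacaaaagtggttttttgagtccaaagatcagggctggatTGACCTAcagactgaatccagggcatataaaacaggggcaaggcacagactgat
Ciart carries its E-boxes 116, 58 and 44 bases before the start, and Cry1 carries one 60 bases before it. Neither of these E-box genes had a curve that was called, so their fitted peaks are not compared here. The D-boxes of Per3 lie 205 and 158 bases before its start.

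The 76 genes called with the term were spread over the day: 17 peaked 0 to 6 h after lights on (0.107%), 20 at 6 to 12 h (0.126%), 15 at 12 to 18 h (0.0945%) and 24 at 18 to 24 h (0.151%). Among those named by rule, the early group held Nr1d1, Nr1d2 and Dbp with the widest curves, and Neb, the gene of the muscle filament protein nebulin. The second group held Alas1 and Rab5if. The third held H1f2, a linker histone, Pgk1, a glycolytic enzyme, and Hsd17b10, a mitochondrial dehydrogenase. The last held Col5a3, Mapk15 and Galt. Over the 9 libraries that did not stand apart, Galt stayed in that group, with a peak at 22.5 h. Over the same 9 libraries Col5a3 peaked at 1.495 h and Mapk15 at 0.4025 h, within the range of the early group. All 3 libraries of ZT22 stood apart, so peaks at 18 to 24 h rest in part on the term being a constant over the day. Only 7 of the 76 belong to the lists described here: Nr1d1, Nr1d2, Dbp, Pgk1, Galt, Alas1 and mt-Nd3. Leaving out single libraries moved the count widely. It was 40 and 5 without ZT2 libraries 2 and 3, 25, 48 and 42 without ZT6 libraries 1, 2 and 3, and 32, 21 and 39 without ZT10 libraries 1, 2 and 3. It was 23 without ZT14 library 2, 43 and 232 without ZT18 libraries 1 and 2, and 35 without ZT22 library 2. Of 33 named genes called here, H2-T24 and Galt remained called in all 18 such fits.

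Alas1, the rate-limiting enzyme of heme synthesis (chr9:106233455-106248654, minus strand, GRCm38), peaked late in the light phase. It measured 602, 501 and 546 CPM at ZT2, 581, 187 and 1642 at ZT6 and 1520, 910.5 and 1390 at ZT10. It measured 301, 219 and 361 CPM at ZT14, 154, 117 and 326 at ZT18 and 109, 158 and 163 at ZT22. All 3 libraries of ZT10 and the ZT6 library that did not stand apart exceeded the other 14. The amplitude was 1.07 ± 0.17 log2 with a peak at 8.0 ± 0.6 h (adjusted p = 0.0195), and 1.35 ± 0.22 with a peak at 7.9 ± 0.5 h over the 9 libraries (adjusted p = 0.0193). Alas1 rose by 1.26 ± 0.25 log2 from ZT2 to ZT10 (adjusted p = 0.0177), while Alad, the next enzyme of the pathway, changed by -0.85 ± 0.20 (adjusted p = 0.0312).

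Galt, the uridylyltransferase of galactose use (chr4:41755228-41758695, plus strand, GRCm38), had the lowest p of the rhythm test with the term. It measured 109, 132 and 118 CPM at ZT2, 31.5, 26.3 and 59.2 at ZT6 and 50.7, 46.5 and 57.6 at ZT10. It measured 27, 25.6 and 66.2 CPM at ZT14, 31.7, 30.1 and 90.5 at ZT18 and 47.1, 65.8 and 48.3 at ZT22. The 3 libraries of ZT2 were the highest of the day, and the libraries that stood apart were lower at each time that held both kinds. Its amplitude was 0.67 ± 0.08 log2 with a peak at 23.0 ± 0.5 h (adjusted p = 0.00659), and over the 9 libraries the peak was at 22.5 h (adjusted p = 0.0253). Galt overlaps Il11ra1, and reads of the shared stretch cannot be told apart.

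Rab5if was lowest at ZT2 in the whole day. It measured 4.23, 4.22 and 4.36 CPM at ZT2 and 14, 29.9 and 30 at ZT10, with 7.13, 8.68 and 11.5 CPM in library 3 of ZT6, ZT14 and ZT18, the libraries of those times that did not stand apart. In the 9 that stood apart it measured 9.24 to 76.2 CPM. Its peak was at 11.3 h with the term (adjusted p = 0.0433) and it rose by 2.56 ± 0.29 log2 from ZT2 to ZT10 (adjusted p = 0.0021). H2-T24, a class Ib MHC gene, was called with the term (peak 10.6 h, adjusted p = 0.0163) with 13.3 to 39 CPM in the libraries that stood apart and only 0.946 to 3.31 in the other 9, where its curve was not called (adjusted p = 0.252). Its amplitude was 0.71 ± 0.10 log2 with the term and 0.72 ± 0.25 over those 9, where the peak was at 11.2 h.

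**Figure D3:**
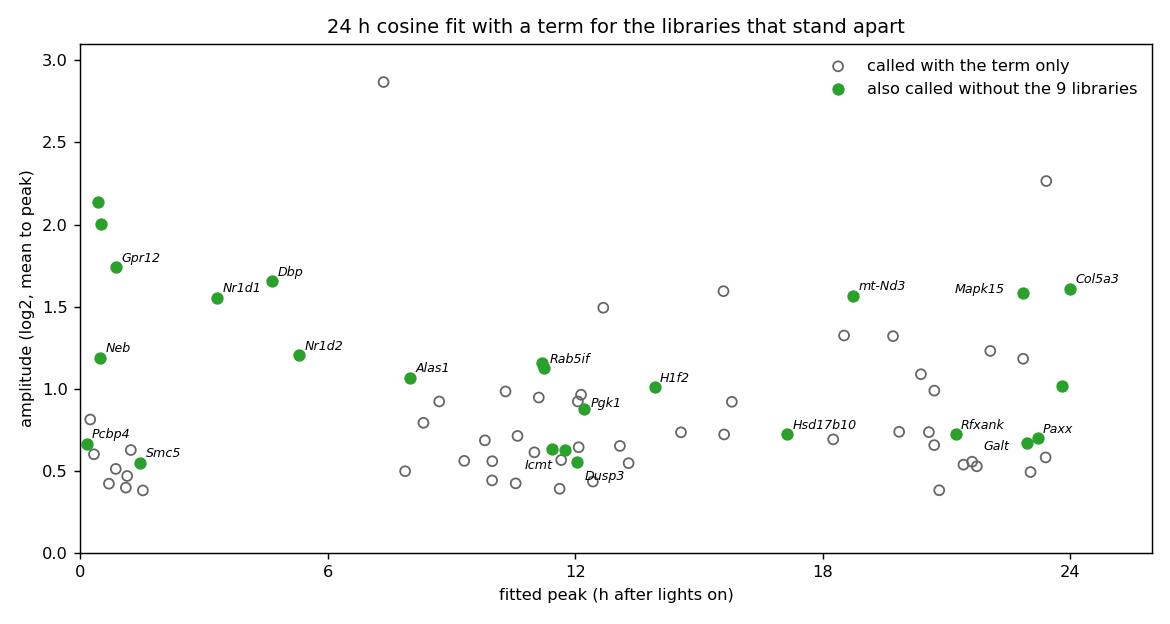
Amplitude (log2, vertical axis) against peak time (hours after lights on, horizontal axis) of the 76 genes called with a term for the libraries that stood apart. Green points are the 25 genes also called over the other 9 libraries, and names are given to most of these. Nr1d1, Nr1d2 and Dbp lie between 3 and 6 h, and Alas1 at 8.0 h.

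The widest view of daytime functions comes from ZT2 against ZT10. Of 13541 genes, 458 were higher at ZT10 (3.38%) and 494 lower (3.65%), and the median difference of all genes was -0.011 log2. The count was 1998 without ZT2 library 1, 35 without ZT2 library 3, 199 without ZT10 library 2 and 148 without ZT10 library 3. It was 1 when the contrast was taken from a fit of all 18 libraries, which share 1 estimate of spread. Of 98 named genes called, 13 remained called whichever of the 6 libraries was left out: Nr1d1, Arrdc3, Prtn3, Spon2, Egr1, Hmgcs1, Eif4ebp3, Rab5if, Mfsd2a, Sik1, Pklr, G6pc and Ces1d. ZT2 library 3 mattered most, and 85 of the 98 lost their call without it. Beside these differences, some library measures also differed between the times. Mitochondrial RNA made up 9.415 to 15.98% of counts at ZT2 and 4.857 to 10.91% at ZT10. The hepatocyte mean was 11.97 to 12.26 against 12.24 to 12.47 log2 CPM, and the B cell mean 1.94 to 2.34 against 0.91 to 1.26. The mean of the 4 intestine and pancreas markers that passed the filter was 4.23 to 4.56 at ZT2 and 3.17 to 3.71 at ZT10. The neutrophil mean was -0.62 to -0.36 and -1.76 to -1.18 log2 CPM. Their part in the differences was not tested.

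Of 17 genes of gluconeogenesis and glycogen, 6 rose from ZT2 to ZT10 (35.3% against 3.38% of all genes) and 0 fell, with a median of 0.524 log2 and 11 of 17 differences above 0. G6pc encodes the last enzyme of glucose release, glucose-6-phosphatase, and its promoter is printed above. It measured 98.6, 77.8 and 122 CPM at ZT2 and 325, 484 and 431 at ZT10, a rise of 2.10 ± 0.25 log2 (adjusted p = 0.00218). In library 3 of ZT6, ZT14 and ZT18 it measured 284, 583 and 264 CPM, and its fitted peak over the 9 was at 12.5 ± 0.6 h (adjusted p = 0.00356). It was thus lowest soon after lights on and highest around lights off in those libraries. In the libraries that stood apart it measured 45.1 to 381 CPM.

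Pck1, which makes phosphoenolpyruvate for glucose synthesis, measured 1497, 1407 and 1251 CPM at ZT2 and 3547, 3325 and 3479 at ZT10 (1.36 ± 0.23 log2, adjusted p = 0.00959). Its levels in the libraries that stood apart were 50.6 to 941 CPM, all below those of ZT2. Fbp1, fructose bisphosphatase, rose by 1.79 ± 0.30 log2 (adjusted p = 0.00935) and Slc25a25, a mitochondrial ATP-Mg carrier, by 2.26 ± 0.41 (adjusted p = 0.0189). With G6pc these make 4 genes that were also called as rhythmic over the 9 libraries (23.5% of 17, against 1.06% of all genes). Their peaks ran from 11.7 h for Pck1 to 12.8 h for Slc25a25. The other risers were Gbe1, the glycogen branching enzyme (1.37 ± 0.22 log2), and Ppp1r3b, which brings protein phosphatase to glycogen (1.05 ± 0.26). Gys2, the liver glycogen synthase, had a difference of 0.52 ± 0.21 log2 and did not pass (adjusted p = 0.144).

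Glycolytic genes moved both ways. Of 20 in the list, Pklr, Pgk1 and Eno1 rose (15%, against 3.38% of all genes) and Galt and Gckr fell (10%, against 3.65%). Pklr, the liver pyruvate kinase, went from 23.9, 12.8 and 15 CPM at ZT2 to 64.9, 57.7 and 58.6 at ZT10 (1.85 ± 0.24 log2, adjusted p = 0.00296). Gckr, a regulator of sugar phosphorylation, went from 219, 462 and 442 to 146, 119.5 and 171 CPM (-1.32 ± 0.29 log2, adjusted p = 0.0239).

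Genes of fatty acid and triglyceride synthesis were called in both directions. Of 25, 3 were higher at ZT10 (12%, against 3.38% of all genes) and 2 lower (8%, against 3.65%). Their median difference was -0.073 log2. Mlxipl, which encodes the glucose-sensing factor ChREBP, went from 278, 558 and 542 CPM at ZT2 to 236, 152 and 117 at ZT10 (-1.40 ± 0.33 log2, adjusted p = 0.0331). Srebf1, the gene of the insulin-responsive factor SREBP-1, fell by 0.71 ± 0.19 log2 (adjusted p = 0.0464). Thrsp, a lipogenic cofactor, went the other way, from 57, 178 and 57.5 to 322, 352 and 520.3 CPM (2.07 ± 0.46 log2, adjusted p = 0.0353), and Me1 and Fads2 rose with it. Fasn, the fatty acid synthase, had values of 108, 188 and 128 CPM at ZT2 and 81.9, 101 and 114 at ZT10 and did not pass (adjusted p = 0.237). Fasn was highest in libraries 1 and 2 of ZT14 and in ZT22 (340.4, 394 and 503 CPM), all of which stood apart.

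Lipid uptake and storage genes also split: of 22, 3 rose (13.6%, against 3.38% of all genes) and 1 fell (4.55%, against 3.65%). Lpl, lipoprotein lipase, measured 169, 32.5 and 142 CPM at ZT2 and 8.61, 15 and 15.7 at ZT10, with no overlap, and fell by 3.09 ± 0.64 log2 (adjusted p = 0.0429). The 3 libraries of ZT10 were the lowest of the day, and in the libraries that stood apart Lpl measured 93.2 to 468 CPM. The lipid droplet proteins Cidec, Plin4 and Plin5 rose. Plin5 went from 65.2, 31.1 and 48 to 128, 113 and 179 CPM (1.58 ± 0.28 log2, adjusted p = 0.0117), and over the 9 libraries it peaked at 13.6 h (adjusted p = 0.011). Cidec peaked at 14.1 h (adjusted p = 0.0156). Mfsd2a, a carrier of lysophosphatidylcholine, measured 18.4, 18 and 21.1 CPM at ZT2 and 119, 89.7 and 86.4 at ZT10 (2.40 ± 0.21 log2, adjusted p = 0.000451). It measured 2.01, 0.826 and 0.86 CPM at ZT22, below every other library of the day, and all 3 of those stood apart. In fat burning, 3 of 35 genes rose (Hadh, Hadha and Acadvl, enzymes of mitochondrial β-oxidation, 8.57% of the list) and 0 fell. Cpt1a, the gate of that pathway, had a difference of 0.62 ± 0.25 log2 that did not pass (adjusted p = 0.139).

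In cholesterol synthesis, 1 of 23 genes rose and 1 fell (4.35% each way, near the 3.38% and 3.65% of all genes). Hmgcs1, the enzyme that makes HMG-CoA, measured 324, 477 and 402 CPM at ZT2 and 87.6, 107 and 131 at ZT10 and fell by 1.85 ± 0.24 log2 (adjusted p = 0.00278). In library 3 of ZT6, ZT14 and ZT18 it measured 436, 138 and 356 CPM, and at ZT22 1047, 537 and 559.9. All 3 libraries of ZT22 stood apart, so time and the state of the libraries cannot be told apart there. The mean of the whole list was 3.74 to 7.35 log2 CPM in the 9 libraries that stood apart and 5.10 to 6.36 in the other 9. Of 19 bile acid genes, Abcb11 (the bile salt export pump), Abcg5 (a sterol exporter) and Nr0b2 (the repressor SHP) fell and 0 rose. These 3 were 15.8% of the list, against 3.65% of all genes that fell. Abcg5 went from 149.5, 304 and 289 to 93, 98.2 and 118 CPM (-1.23 ± 0.27 log2, adjusted p = 0.024), and it shares a locus with Abcg8. Cyp7a1, the rate-limiting enzyme of bile acid synthesis, spread from 28.1 to 129 CPM within ZT2 alone and was not called (adjusted p = 0.546).

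The called genes of amino acid breakdown peaked between 12 and 18 h in the 9 libraries that did not stand apart. Between ZT2 and ZT10, 8 of 42 genes rose (19%, against 3.38% of all genes) and 1, Agxt, fell (2.38%, against 3.65%). Of the 42 differences, 33 were above 0. Over the 9 libraries 7 of the list were called as rhythmic (16.7% of 42, against 1.06% of all genes). All 7 peaked between 12 and 18 h, as did 58 of the 169 genes called over these libraries (0.364% of 15914 tested). That stretch is held by 1 library each at ZT14 and ZT18. The 7 were Bhmt, Mat1a, Ahcy and Cth of methionine and homocysteine metabolism, Arg1 of the urea cycle, Got1, an aspartate aminotransferase, and Gldc of glycine cleavage. Bhmt, which remethylates homocysteine with betaine, measured 2094, 2516 and 1732 CPM at ZT2, 3289, 1643 and 5170 at ZT10 and 3079, 9276 and 21800 in library 3 of ZT6, ZT14 and ZT18 (peak 17.2 ± 0.6 h, adjusted p = 0.014). Its highest value is 1 library, that of ZT18. Cth, which makes cysteine from cystathionine, measured 188, 180.5 and 154 CPM at ZT2, 231, 259 and 414 at ZT10 and 158, 506 and 727 in the same order (peak 16.5 ± 0.5 h, adjusted p = 0.00906). None of the 7 was called with the term over 18 libraries, where Bhmt measured 5104, 3946 and 9853 CPM at ZT22.

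**Figure D4:**
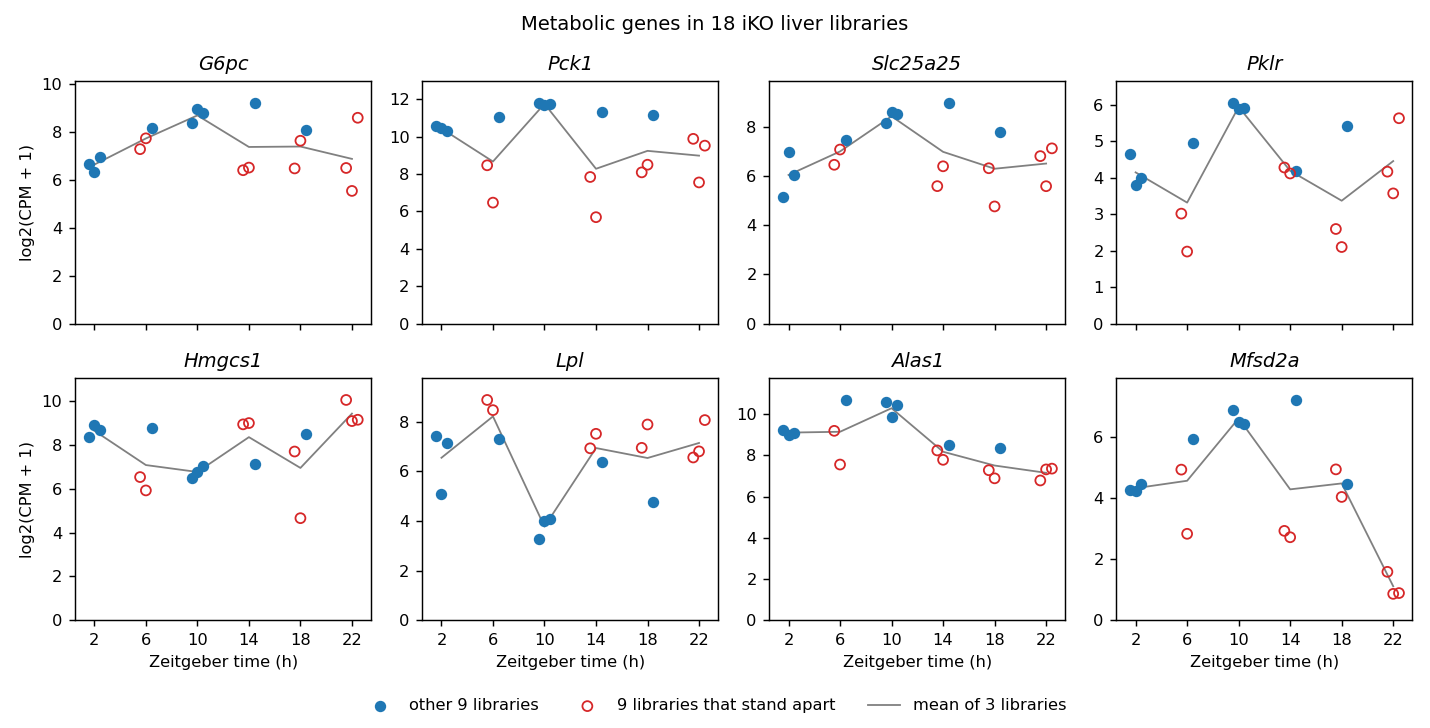
Log2(CPM + 1) of 8 metabolic genes (vertical axes) in each library, against hours after lights on (horizontal axis). Open red points are the 9 libraries that stood apart, filled blue points the other 9, and the grey line joins the means of 3 libraries. G6pc, Pck1, Slc25a25, Pklr and Mfsd2a are higher at ZT10 than at ZT2 in every library, and Lpl and Hmgcs1 are lower.

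Of 25 phase 1 enzymes and their regulators, Ces1d, Por, Cyp2f2 and Cyp2a5 rose (16%, against 3.38% of all genes). Cyp3a25 and Ahr fell (8%, against 3.65%). Ces1d, a carboxylesterase, measured 272, 258 and 329 CPM at ZT2 and 876, 1089 and 1190 at ZT10 (1.92 ± 0.23 log2, adjusted p = 0.0022), and over the 9 libraries it peaked at 11.7 h (adjusted p = 0.00707). Cyp3a25 went from 1131, 2185 and 2112 to 711, 760.3 and 702 CPM (-1.28 ± 0.28 log2, adjusted p = 0.0239). Of 25 conjugation and transport genes, Gsta3, Gstt3 and Ugt1a1 rose (12%, against 3.38% of all genes) and 0 fell. Cyp2a5 and the Gsta genes have near-identical copies and the Ugt1a genes share exons, so the counting could split their reads.

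Of 20 heat shock and cold-inducible genes, 6 rose by ZT10 (30% against 3.38% of all genes) and 0 fell: the cytosolic Hsph1 and Dnaja1, the chaperonin subunit Cct2, the mitochondrial pair Hspd1 and Hspe1, and Rbm3, a cold-inducible RNA-binding protein. Hspe1 measured 121, 77.3 and 70.3 CPM at ZT2 and 172, 191 and 188 at ZT10 (1.08 ± 0.23 log2, adjusted p = 0.023), and it shares a promoter region with Hspd1. Rbm3 measured 21.3, 15.6 and 20 CPM and 35.4, 36.8 and 42.1 (1.05 ± 0.20 log2, adjusted p = 0.0134), with 25.6 to 127 in the libraries that stood apart. Cirbp, the other cold-inducible protein of this kind, did not pass (0.64 ± 0.22 log2, adjusted p = 0.0924). In the endoplasmic reticulum list, Atf6 rose and Ddit3, the gene of the stress factor CHOP, fell, of 26 (3.85% each way, near the shares of all genes).

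Signalling genes gave some of the largest differences. Sik1, a kinase that cAMP induces, measured 4.65, 8.29 and 6.99 CPM at ZT2 and 26.4, 44 and 31.1 at ZT10 (2.39 ± 0.27 log2, adjusted p = 0.0021). Eif4ebp3, a translation repressor, went from 0.971, 1.46 and 0.485 to 10.3, 4.78 and 10.6 CPM (3.17 ± 0.45 log2, adjusted p = 0.00436). Both were also called over the 9 libraries, with peaks at 12.5 h and 12.3 h. Eif4ebp3 overlaps Maskbp3 on the same strand, and reads of the shared stretch cannot be told apart. Egr1, the immediate early factor, went the other way, from 18.3, 22.6 and 16.3 to 3.23, 4.04 and 3.25 CPM (-2.40 ± 0.24 log2, adjusted p = 0.00145), and was the only gene called between ZT2 and ZT10 among 18 of that list. Jun and Btg2 of the same list were called over the 9 libraries (10% of 20, against 1.06% of all genes), with peaks between 12 and 18 h. Egr1 measured 82.6, 41 and 17.8 CPM at ZT14 and 56.6, 40 and 29.6 at ZT22.

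Arrdc3, which encodes an α-arrestin, had the largest fall among named genes. It measured 338, 118 and 299 CPM at ZT2, 26, 60.4 and 65.1 at ZT6 and 24.1, 17.4 and 11.1 at ZT10. It measured 56.7, 36.9 and 25.1 CPM at ZT14, 33.2, 45.3 and 56.6 at ZT18 and 25, 43.7 and 33.6 at ZT22. The 3 libraries of ZT2 exceeded the other 15. Arrdc3 fell by 3.79 ± 0.45 log2 from ZT2 to ZT10 (adjusted p = 0.00581). With Nr1d1 it was 1 of 2 genes of 15871 that differed among the 6 times over all 18 libraries (0.0126%, adjusted p = 0.0283). Nr1d1 remained called in each fit without 1 library and Arrdc3 lost its call in 12 of 18 (adjusted p up to 0.140). The count of 2 reached 3947, 2491 and 2105 without library 3 of ZT6, ZT14 and ZT18, each of which leaves a time held only by libraries that stood apart. The next genes by that test were Tob1, an antiproliferative factor, Tmem184c and Sec61g, at adjusted p = 0.0691. Tob1 was lowest at ZT2 (36.3, 40.8 and 41 CPM), rose by 1.35 ± 0.19 log2 to ZT10 (adjusted p = 0.00381) and measured 131, 143 and 169.5 CPM at ZT22.

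Few members of the hormone lists were called, and their shares are set beside the 3.38% of all genes that rose and the 3.65% that fell. Of 18 glucocorticoid targets, Zbtb16 and Mt2 rose (11.1%) and 0 fell, with a median of 0.683 log2. Zbtb16, a zinc finger factor, went from 3.26, 6.04 and 3.88 to 25.1, 10.7 and 14.8 CPM (1.99 ± 0.35 log2, adjusted p = 0.0134). Of 21 genes of the growth hormone and STAT5 axis, Cish, the STAT5-induced inhibitor, and Mup7 rose (9.52%), and Bcl6, a repressor at STAT5 sites, fell (4.76%). Bcl6 went from 48.2, 77.3 and 92.5 to 11.4, 25.3 and 7.64 CPM (-2.25 ± 0.45 log2, adjusted p = 0.0287). Mup7 has near-identical copies and lay at 0 to 2527 CPM in the libraries that stood apart. Of 23 insulin and fasting signals, Txnip rose (4.35%) and the stress genes Gdf15 and Trib3 fell (8.7%).

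Interferon-stimulated genes were called only as lower at ZT10. Of 34 interferon-stimulated genes, 10 fell by ZT10 (29.4% against 3.65% of all genes) and 0 rose, with a median of -0.559 log2. Oas2 measured 8.88, 20.2 and 18.5 CPM at ZT2 and 5, 4.71 and 2.62 at ZT10 (-1.89 ± 0.35 log2, adjusted p = 0.0148), and Stat2, a subunit of the interferon factor ISGF3, 98.5, 157 and 144 and 74.2, 58.6 and 54.5 (-1.05 ± 0.23 log2, adjusted p = 0.025). The means of the whole list were 3.57 to 3.67 log2 CPM at ZT2 and 2.84 to 3.13 at ZT10, with 3.90, 3.07 and 3.17 in library 3 of ZT6, ZT14 and ZT18. Of 10 B and plasma cell markers tested, 3 fell (30%, against 3.65% of all genes), Pax5 and Ighd among them. Only 4 of 12 neutrophil markers were tested, and Prtn3 and Csf3r fell (50%). The mean of the neutrophil list was below 0 log2 CPM at both times. Pax5, a transcription factor that defines B cells, was at 2.36, 1.02 and 1.66 CPM at ZT2 and 0.253, 0.184 and 0 at ZT10. It passed the filter for low counts only through ZT2, so it could be called only as lower. The shares of these 2 marker lists are therefore no measure of direction. Prtn3, a granule protease, went from 18.9, 41.3 and 16.6 to 3.04, 2.2 and 3.32 CPM (-3.12 ± 0.37 log2, adjusted p = 0.00278). None of 17 macrophage and none of 12 T and NK cell markers was called. The part of other cells in the interferon difference was not tested.

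Of 26 cytosolic ribosomal proteins 0 were called, with a median of 0.257 log2. Of 29 nuclear subunits of oxidative phosphorylation, Sdha, Sdhd, Cox5a and Ndufb8 rose (13.8%, against 3.38% of all genes) and 0 fell. Of 13 mitochondrially encoded genes 0 were called between ZT2 and ZT10, with a median of -0.698 log2. Of 20 acute phase proteins and of 20 hepatocyte markers, 0 were called.

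**Figure D5:**
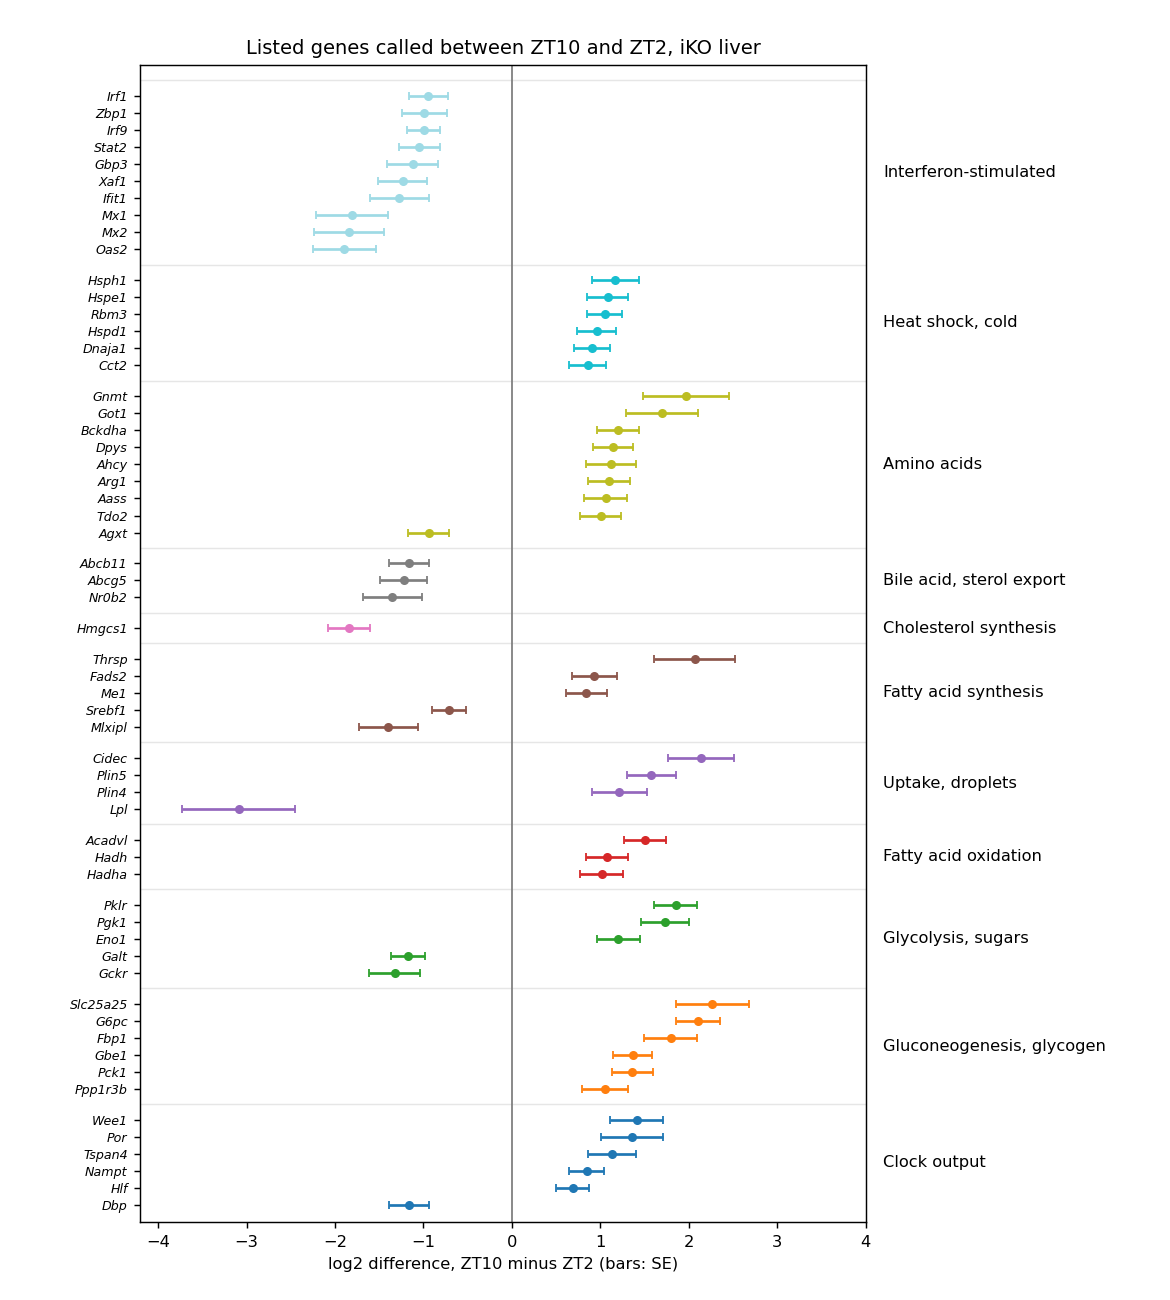
Difference between ZT10 and ZT2 (log2, horizontal axis) of genes called by edgeR in 11 of the lists, grouped by function (vertical axis), with 1 called gene not drawn. Points are fitted differences, bars their standard errors, with 3 libraries per time. The called genes of glucose production and of the heat shock list lie to the right of 0, and those of the interferon list to the left.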

How the data were processed

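Liver RNA was isolated with Trizol, made into NEBNext Ultra libraries and read at 150 bp on an Illumina HiSeq instrument, per the labels' protocols. The authors deposited 1 table of raw counts per gene for 108 libraries (55416 genes, 1492 without a symbol). Per the submitters' processing notes, which give no order, the tools were featureCounts 1.5.0-p3, DESeq2 1.16.1 and HISAT2 2.0.4 and the genome was GRCm38 (mm10). The strand setting is not given in the sources used here. Gene positions in the deposited table equal those of GENCODE vM21 on GRCm38 for 1494 of 52083 genes (2.87%), so printed gene positions were taken from GENCODE vM21 by gene ID, and promoters from RefSeq.

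The deposited counts, 16350000 to 19480000 per library, were analysed with R 4.3.3 and edgeR 4.0.16 (TMM scaling, filterByExpr over the 6 times, robust quasi-likelihood fit, Benjamini-Hochberg adjustment, threshold 0.05). Total counts were alike, so precision differs between genes, with their level, more than between libraries. Rhythm was a 24 h cosine and sine pair, without a further term, with a term for the 9 libraries whose cell cycle list averaged above 2 log2 CPM (prior count 2), or without those 9. A factor of 6 times and the contrast of ZT10 and ZT2 (6 libraries, 3 per time) were also fitted. DESeq2 1.42.0, DESeq2 size factors, no filter, a replicate block, leaving out each library and other sets of libraries were the alternatives. The 3 libraries of each time differed by more than sampling noise in all 18 pairs. The code was tested on simulated data.

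The libraries were chosen by label, and the 43 gene lists (814 entries, 813 found) and the tests were chosen with earlier results of these data known. Genes are named by rule: all clock genes, up to 8 genes per 6 h of peak time with the widest curve called with the term, the 10 largest called rises and falls from ZT2 to ZT10 whose libraries do not overlap, the 5 lowest p over 6 times (mean above 1 log2 CPM), and the 4 lowest p of each list. A few genes that the rule or the lists would name are not reported here. Other list members and genes of the closing section were chosen after their values were seen.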

Additional observations from a re-analysis of the deposited data

How the results depend on the processing

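The rhythm over 18 libraries gave 0 calls with DESeq2's size factors, without the filter, with a replicate block and without the 2 libraries with high Xist, but 134 with DESeq2, 169 without the 9 libraries that stood apart, 14 in a fit of all 36 liver libraries and 0 to 5 without 1 library. The 76 calls with the term became 933 with DESeq2, 335 without the filter, 30 with the cell cycle mean as a continuous term, 20 without ZT22 (11 shared; chosen after seeing the data), 65 with a replicate block (47 shared) and 5 to 232 without 1 library. The 2 genes over 6 times became 4820 with DESeq2, 26 without the filter, 1 with a replicate block, 1 without the 2 libraries with high Xist, 374 without the 9, 674 with the term, 1916 in the fit of 36 livers (chosen after seeing the data) and 1 to 3947 without 1 library. The 952 calls between ZT10 and ZT2 became 1603 with DESeq2 (765 higher, 838 lower), 1945 without the filter, 567 with a replicate block (285 higher, 282 lower, 525 shared), 1 in the fit of 18 libraries, 626 in that fit with the term (489 shared; chosen after seeing the data) and 35 to 1998 without 1 library. The cause of these changes was not tested. Between ZT10 and ZT2, no named gene that was called in the main or the altered fit reversed its direction. For the rhythm fits and the 6 times, shifts of peak or direction were not compared. Deviations of same-numbered libraries correlated from -0.243 to 0.825 (median 0.0162, 45 pairs), and 8 of 18 libraries were closest to their own number. At ZT6, ZT14 and ZT18 the library that did not stand apart had the same replicate number each time. The median also covers pairs with the other times, so it cannot decide whether number paired the libraries at these times. A batch by replicate number was not tested. Peaks in the dark rest on 1 library each at ZT14 and ZT18 where the 9 libraries that stood apart are left out, and ZT22 then has none.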

Other observations

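Genes outside the lists, chosen here after their values were seen, add other functions to the 169 rhythmic over the 9 libraries that did not stand apart (edgeR, Benjamini-Hochberg adjustment). Early in the light phase these were Osgin1, an oxidative stress gene (peak 1.8 h, amplitude 1.28 ± 0.19 log2, adjusted p = 0.0125), and Fabp5, a fatty acid carrier (peak 4.5 h, amplitude 1.38 ± 0.22, adjusted p = 0.0285). Around lights off Atp1b1, a subunit of the sodium pump, peaked at 12.9 h (adjusted p = 0.00356), as did Odc1, the rate-limiting enzyme of polyamine synthesis (peak 11.5 h, adjusted p = 0.0158), and Ctnnb1, the gene of β-catenin (peak 12.4 h, adjusted p = 0.0115). Ncoa4, the receptor that sends ferritin to the lysosome, peaked at 13.2 h (adjusted p = 0.0158). Etnppl, which breaks down phosphoethanolamine, peaked at 16.2 h (amplitude 1.25 ± 0.18, adjusted p = 0.00707). None of these was called with the term over 18 libraries.

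Gapdh, often used as a reference gene, ranged from 3.15 to 481 CPM over the 18 libraries and was not called. It was above 100 CPM in ZT10 library 3, ZT14 library 3 and all 3 libraries of ZT18, and at or below 28.1 CPM in the other 13. Miox, an enzyme of kidney tubules, measured 11.7 to 77.1 CPM in the 9 libraries that stood apart and 0 to 1.78 CPM in the other 9. Only 4 of 10 kidney tubule markers passed the filter. Their mean did not separate the libraries, at -0.304 to 1.881 log2 CPM in those that stood apart and -2.761 to -0.171 in the others.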
